A study of Mus musculus with 10 samples.

Results

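The genes described here are 49 genes of the cell cycle, 25 that act in DNA replication during S phase and 24 that act in mitosis, measured in LSK cells of mouse bone marrow. LSK cells are sorted as lineage-negative cells with Sca1 and cKit on their surface, and they include the haematopoietic stem cells and multipotent progenitors. The members were chosen by name, and each was represented by the probe with the highest mean intensity over the 10 arrays among all probes annotated with that single symbol. Of the 49 genes, 47 had such a probe, and Mki67 and Ccnb1 were not named by the probe annotation used here. Of these 47, 45 passed a filter that asked for detection above the negative controls on at least 5 arrays, 24 replication and 21 mitosis genes among 8841 genes tested in all. Ccne1 and Ccnb2 did not pass. RNA came from 5 control and 5 LysM-KI mice, 1 array per mouse, and every mouse was 9 to 16 weeks old and of the LysMCre strain, which expresses Cre recombinase from the lysozyme locus Lyz2, a gene of myeloid cells. The knocked-in allele is not stated in the labels. LysM-KI mice are called mutant there, and whether the control mice carried Cre is not given beyond the shared strain label. The comparison asks how transcript levels in LSK cells of LysM-KI mice stand to those of control mice.

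Before S phase, Cdc6 and Cdt1 load the ring of Mcm2 to Mcm7 onto origins of replication, and Cdc45 and the GINS complex turn it into the active helicase. Many of these genes are switched on by E2F factors once cyclin and CDK activity releases them from the retinoblastoma protein. Mitotic genes peak later, and many carry a cell cycle homology region (CHR) and CCAAT boxes, the sites of the DREAM and MuvB complexes and of NF-Y. Adult stem cells of the LSK compartment are mostly quiescent, while its multipotent progenitors divide often.

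The promoters of both gene sets are shown first because they carry a feature that the choice of members did not use. RefSeq promoter windows of the build GRCm38.p6, from 250 bases before to 50 bases after the start site, were given for 21 replication and 20 mitosis genes. The E2F motif was searched in several spellings, namely TTCCCGC and also TTGGCGC as well as TTCGCGC and finally TTGCCGC, the CHR as TTTGAA and the NF-Y box as CCAAT, each on both strands. TTGGCGC and TTCGCGC can overlap on opposite strands, and TTGGCGC can share letters with the reverse of CCAAT. Stretches before the start site are printed 5′ to 3′ on the strand of the gene, with the motifs in capitals. Those of the replication genes Mcm5 (chr8:75109339-75109467, plus strand), Mcm6 (chr1:128359706-128359825, minus strand) and Rrm1 (chr7:102441595-102441694, plus strand) show E2F motifs beside CCAAT boxes.
Mcm5: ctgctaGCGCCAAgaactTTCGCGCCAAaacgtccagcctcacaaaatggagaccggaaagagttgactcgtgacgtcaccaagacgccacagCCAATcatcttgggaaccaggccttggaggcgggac
Mcm6: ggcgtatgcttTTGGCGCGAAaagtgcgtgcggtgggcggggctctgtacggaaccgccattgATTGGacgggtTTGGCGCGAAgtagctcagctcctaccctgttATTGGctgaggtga
Rrm1: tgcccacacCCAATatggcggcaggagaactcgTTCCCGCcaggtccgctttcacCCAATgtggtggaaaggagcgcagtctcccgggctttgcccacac
Those of the mitosis genes Cdk1 (chr10:69352913-69353062, minus strand), Top2a (chr11:99024190-99024299, minus strand) and Cdc20 (chr4:118437344-118437403, minus strand) show the CHR with CCAAT boxes close by.
Cdk1: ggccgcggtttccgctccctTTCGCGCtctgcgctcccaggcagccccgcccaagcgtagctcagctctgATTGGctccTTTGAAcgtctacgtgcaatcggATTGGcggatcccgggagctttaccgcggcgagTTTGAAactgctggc
Top2a: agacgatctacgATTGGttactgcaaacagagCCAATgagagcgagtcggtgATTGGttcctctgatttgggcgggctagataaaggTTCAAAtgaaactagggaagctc
Cdc20: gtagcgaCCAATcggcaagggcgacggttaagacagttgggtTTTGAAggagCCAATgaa
Ube2c (chr2:164769829-164769928, plus strand) and Bub1b (chr2:118598091-118598210, plus strand) are shown because they had the smallest p of all members in the comparison of the mice, in opposite directions.
Ube2c: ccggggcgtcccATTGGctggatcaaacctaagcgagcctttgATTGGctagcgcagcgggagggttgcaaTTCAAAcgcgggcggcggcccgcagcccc
Bub1b: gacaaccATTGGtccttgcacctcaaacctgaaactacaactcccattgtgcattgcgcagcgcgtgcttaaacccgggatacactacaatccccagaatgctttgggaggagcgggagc
In Bub1b the CHR letters lay 41 bases into the transcript, outside the stretch printed.

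An E2F motif was found in 13 of 21 replication genes and in 4 of 20 mitosis genes, and a CHR in 3 of 21 and 15 of 20. CCAAT was found in 12 of 21 replication and 18 of 20 mitosis genes. Counted by promoter window, 62.5% of 24 replication windows held the E2F motif, against 19.0% of 21 mitosis windows, 17.1% of the 9189 windows of all genes tested and 9.57% of all 32851 windows. The CHR was in 12.5% of replication and 76.2% of mitosis windows, against 12.6% and 17.9%, and CCAAT was in 58.3% and 90.5%, against 38.0% and 37.4%. CHR and CCAAT stood together in 76.2% of mitosis windows and in 5.27% of the windows of all genes tested. Base composition differed little, with a median GC content of 62.2% in replication windows, 58.0% in mitosis windows and 60.7% for the genes tested. Among other genes of the same processes, listed separately, the E2F motif was in 57.4% and CCAAT in 44.7% of 47 windows of replication genes, against 62.5% and 58.3% of the replication members. Of 50 windows of other mitosis genes, 30 held the CHR, 66.0% held CCAAT and 44.0% held both, against 76.2%, 90.5% and 76.2% of the mitosis members. A match of letters is a description and not a site. Cdk1, Mki67 and Hmmr held both the E2F and the CHR letters in the same window. Among the replication genes Fen1 held both, but in separate windows. Neither motif nor CCAAT was found in the windows of 4 replication genes (Tyms, Ung, E2f1 and Ccne1) and of 2 mitosis genes (Birc5 and Nusap1).

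**Figure D1:**
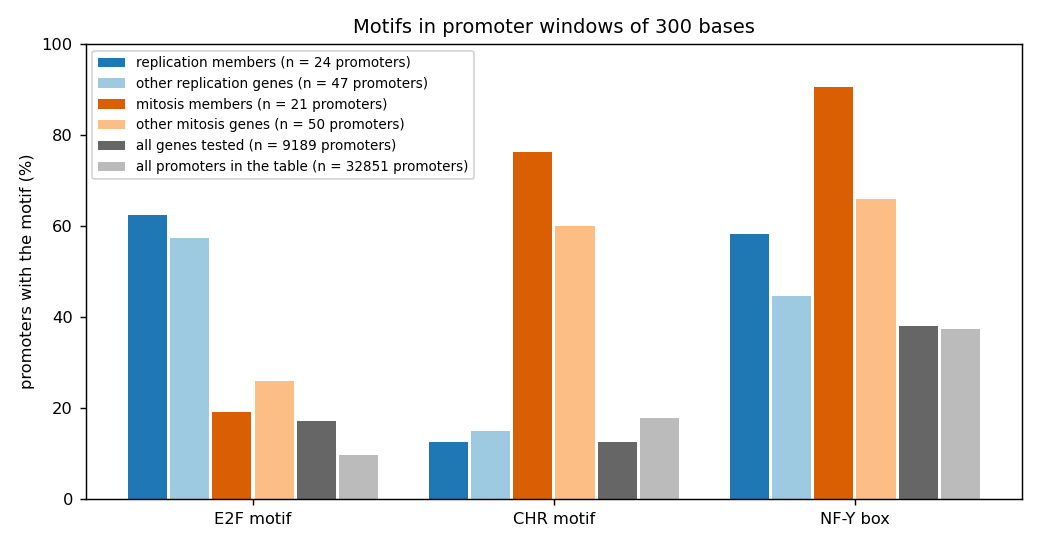
Share of promoter windows (%, vertical axis) that hold the E2F, CHR or NF-Y (CCAAT) letters, as bars for replication and mitosis members, for other genes of each process, for all genes tested and for all windows of the table. E2F letters were in 62.5% of replication windows and CHR letters in 76.2% of mitosis windows, against 17.1% and 12.6% for all genes tested.

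The arrays detected 15234 to 18801 of 45281 probes, with raw medians from 102.3 to 140.0, and correlated with one another at 0.741 to 0.931. Control replicate 4 stood farthest from the rest, with the highest value of 17.7% and the lowest value of 21.3% of the probes tested. LysM-KI replicate 2 came next at 12.1% and 13.1%, close to control replicate 5 at 11.8% and 12.5%. Control replicate 4 and LysM-KI replicate 4 were the only Xist-high mice (12.26 and 11.92 against at most 6.68 on the log2 scale). Of 11 LSK markers, 10 had a probe, 9 were detected on at least 5 arrays and 8 on all 10. The summed linear level of those with a probe was 5737 to 8338 in control and 5975 to 8016 in LysM-KI mice. Of 8 stroma and endothelium markers, 2 were detected on at least 5 arrays, none on all 10, and Kdr and Col1a1 on none. The summed level of all 8, those near background included, was 225 to 263 in LysM-KI mice. It lay below the 299 to 647 in control mice. The summed levels of the markers with a probe overlapped between the groups for the other cell types. For 9 of 11 erythroid markers they were 1327 to 7576 in control and 1710 to 4493 in LysM-KI mice. For all 11 granulocyte and monocyte markers they were 5038 to 10427 and 7440 to 10206. For 7 of 9 B cell markers they were 2998 to 5360 and 2498 to 4327. For 5 of 7 T cell and NK cell markers they were 184 to 374 and 184 to 312. Single markers at an unadjusted p under 0.05 were all lower in LysM-KI mice. Among the 6 B cell markers tested these were Mzb1, a chaperone of antibody-secreting cells, at -1.90 (SE 0.32, limma adjusted p = 0.392, the lowest of all probes), whose groups did not overlap, and Jchain, which joins antibody chains, at -0.77 (SE 0.27, limma adjusted p = 0.877). The other B cell markers tested were above 0, namely Cd79b at 0.83, Ebf1 at 0.59, Vpreb1 at 0.47 and Igll1 at 0.03. The median of the 6 was 0.25. Both stroma and endothelium markers tested were lower at an unadjusted p under 0.05. Pdgfrb was at -1.04 (SE 0.33) and Sparc at -1.40 (SE 0.57), each detected on 4 control and 2 LysM-KI arrays. The part of these other cells in the results below was not tested.

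Transcripts of most of the listed S phase and mitosis genes were detected in these sorted cells. Among genes of the same processes outside the list, 81.4% of the replication and 76.6% of the mitosis genes tested were detected on all 10 arrays. Of the 45 members tested, 41 were detected on all 10 arrays, against 62.4% of all genes tested. These were 22 of 24 replication and 19 of 21 mitosis genes. The exceptions were Pole, the catalytic subunit of the leading strand polymerase, and Ccne2, a cyclin E, with 4 arrays of each group, Aurka, the kinase of the spindle poles, also with 4 of each group, and the checkpoint kinase gene Bub1 with 3 control and 5 LysM-KI arrays. Ccne1, the other cyclin E, was detected on control replicate 1 and LysM-KI replicate 3 alone, with mean log2 intensities of 4.87 ± 0.33 (SD, n = 5) in control and 4.94 ± 0.21 in LysM-KI mice, near background. Cyclin B2 (Ccnb2) was detected on LysM-KI replicate 1 alone, at 4.95 ± 0.21 and 4.85 ± 0.40. The array holds 1 probe for each of these 2 genes, so a poor probe and a low transcript cannot be told apart. Aurka was well measured on 8 arrays, at log2 intensities of 8.89 to 9.99. It was not told apart from background on control replicate 4 (4.57) and LysM-KI replicate 2 (4.67). Its mean and SD of 8.42 ± 2.20 in control and 8.44 ± 2.11 in LysM-KI mice include these 2 arrays.

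Averaged over the genes of each set, the level of the replication genes was 9.37, 9.40, 9.29, 9.31 and 8.92 on the log2 scale in control mice 1 to 5 and 9.45, 9.28, 9.58, 9.39 and 9.15 in LysM-KI mice 1 to 5. That of the mitosis genes was 8.59, 8.64, 8.50, 8.54 and 8.60 in control and 8.81, 8.35, 8.63, 8.66 and 8.62 in LysM-KI mice. The groups overlapped for both sets, and the lowest arrays were control replicate 5 for the replication and LysM-KI replicate 2 for the mitosis genes. The mitosis mean of LysM-KI replicate 2 includes Aurka at 4.67, near background, against 9.14 to 9.57 on the other LysM-KI arrays. That of control replicate 4 includes Aurka at 4.57, and the means without this gene were not computed. The replication genes differed by 0.11 between the group means (9.26 ± 0.20 in control and 9.37 ± 0.17 in LysM-KI mice, SD, n = 5) and the mitosis genes by 0.04 (8.57 ± 0.06 and 8.61 ± 0.16), beside 0.06 for the mean of all genes tested. Since these are averages over chosen members, no p is given. In bulk RNA, fewer cycling cells and less RNA per cell cannot be told apart.

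Control replicate 5 had the lowest replication level of the 10 arrays and an ordinary mitosis level. On this array 4 of 24 replication genes and 9 of 21 mitosis genes lay above their own mean over all arrays, and 11 of the 45 members had their lowest value there, against 12.5% of all probes tested. Mitosis minus replication was -0.32 on this array and ran from -0.96 to -0.53 on the others, a span whose zero point is set by the probes and not by the cells. The genes behind the low level included Pole, which was near background at 4.67 there, against 5.90 to 8.11 on the other control arrays. They also included Cdt1 at 7.85, Fen1 at 7.75, Rrm1 at 10.93 and Mcm4 at 11.57. Each of these genes had its lowest value of the 10 arrays there. The summed level of granulocyte and monocyte markers was lowest on this array too, 5038, beside 5164 on control replicate 1, where the replication level was 9.37, and their part was not tested. Without control replicate 5 the difference in replication level between the groups was 0.03, and that in mitosis minus replication went from -0.07 to 0.02.

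**Figure D2:**
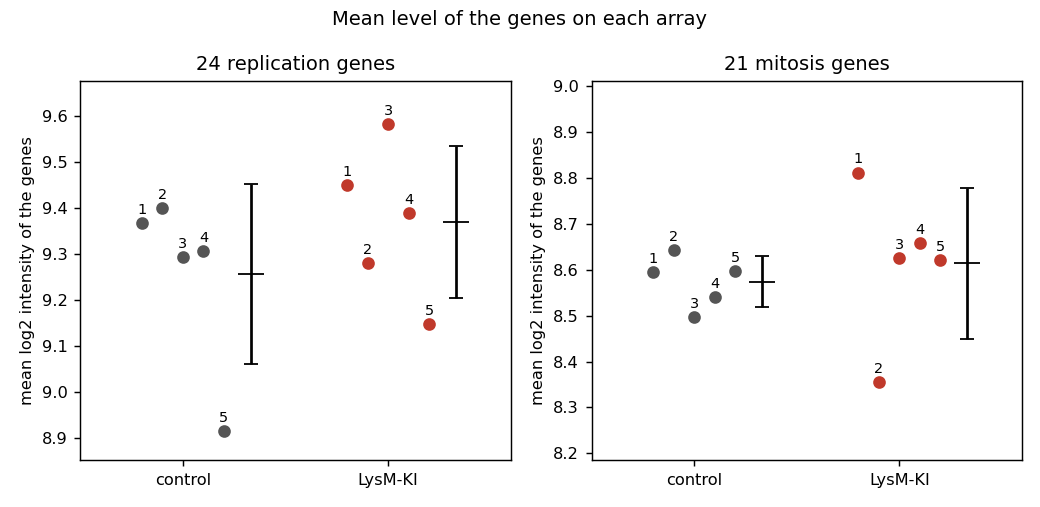
Mean log2 intensity (vertical axis) of the 24 replication genes (left) and the 21 mitosis genes (right) on each array, as points labelled with the replicate number, with the mean and SD of each group as a bar. The groups overlap in both panels, and control replicate 5, at 8.92, lies below all other arrays for the replication genes only.

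**Figure D3:**
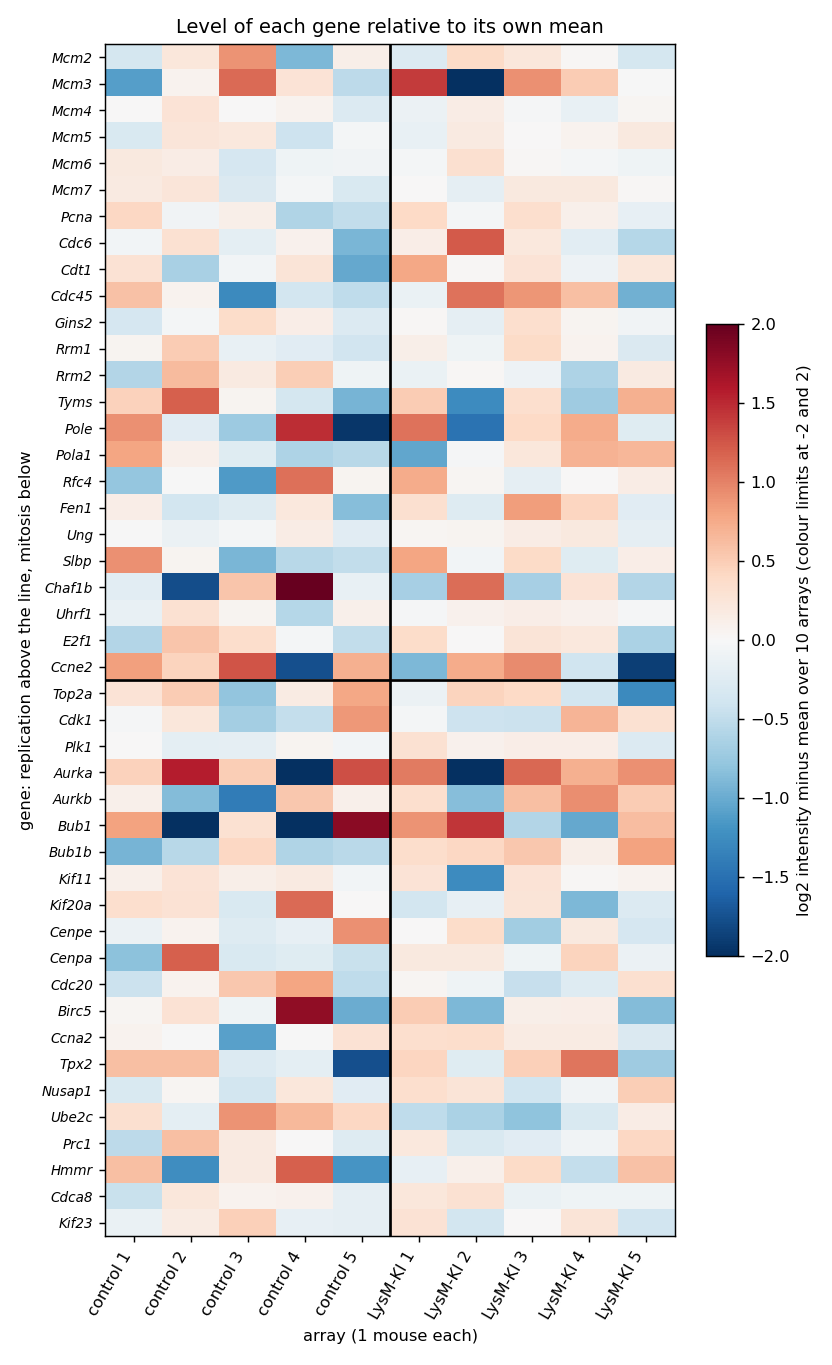
Log2 intensity of each of the 45 genes (rows, replication above the line and mitosis below) on each array (columns), as the difference from the gene's own mean over the 10 arrays. Red is higher and blue lower. No row separates all control from all LysM-KI arrays, and the strongest blue cells include Aurka on control replicate 4 and LysM-KI replicate 2.

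In the comparison of LysM-KI with control mice none of the 45 genes passed the adjusted threshold, and limma called 0% of the 17245 probes tested. At an unadjusted p under 0.05, limma gave 1 member higher in LysM-KI mice, Bub1b, and 1 lower, Ube2c, beside 3.4% of all probes higher and 1.94% lower (5.35% in either direction, 922 probes). None of the 45 had groups that did not overlap, a pattern seen in 0.91% of all probes (0.574% higher and 0.336% lower in LysM-KI mice). Adjusted p-values of the members ran from 0.792 to 1.000. The 95% interval of the log2 fold change contained 0 for 43 members, and for 22 it lay wholly between -1 and 1, so that for these a 2-fold difference in either direction was outside it. For the others the spread between mice was too wide for that, up to an interval from -2.56 to 2.60 for Aurka.

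The Mcm2 to Mcm7 helicase genes had fold changes close to 0 on their brightest probes. Mcm2 had log2 intensities of 8.28, 8.85, 9.53, 7.73 and 8.75 in control mice 1 to 5 and 8.36, 9.01, 8.85, 8.64 and 8.27 in LysM-KI mice 1 to 5. Both groups were centred on 8.63, with the highest and lowest arrays both among the controls. The log2 fold changes of the 6 genes ran from -0.04 (Mcm4) to 0.12 (Mcm5). The 95% interval was -0.48 to 0.41 for Mcm4, -0.36 to 0.61 for Mcm5, -0.39 to 0.52 for Mcm6 and -0.38 to 0.56 for Mcm7. Mcm3 was the exception in precision, from 5.35 on LysM-KI replicate 2 to 9.42 on LysM-KI replicate 1, with an interval from -1.50 to 1.62. The 3 other probes of Mcm6 were at 0.38 to 0.42. With the mean of all tested probes Mcm7 was at 0.97, had groups that did not overlap and passed an unadjusted p under 0.05, through a second probe that gave 1.85.

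The 4 genes that load and activate the helicase were all above 0 on their brightest probe, as were 55.5% of all genes tested, but not on every probe. Cdt1, which brings the helicase to origins, had log2 intensities of 9.16, 8.23, 8.81, 9.12 and 7.85 in control and 9.65, 8.89, 9.15, 8.77 and 9.10 in LysM-KI mice. All 5 LysM-KI mice lay above the control mean (all on 1 side of it in 20.5% of all probes), yet 3 controls lay within their range. Its log2 fold change was 0.48 (SE 0.31, limma adjusted p = 0.946). Cdc45 was at 0.59 (95% interval -0.40 to 1.59), Cdc6 at 0.31 (-0.48 to 1.11) and the GINS subunit gene Gins2 at 0.07 (-0.43 to 0.56), none of them past the threshold. Other tested probes were below 0 for Cdc6 (-2.07), Gins2 (-0.56) and Cdc45 (-0.01), and with the mean of all tested probes Cdc6 was at -0.36 and Gins2 at -0.25.

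Among the genes of the fork, Pcna, the sliding clamp, had log2 intensities of 10.90, 10.41, 10.60, 9.89 and 9.99 in control and 10.89, 10.44, 10.82, 10.59 and 10.33 in LysM-KI mice. Control replicates 4 and 5 lay below all LysM-KI mice, and the other controls lay within the LysM-KI range or just above it. Its log2 fold change was 0.26 (SE 0.26, limma adjusted p = 0.950). The flap endonuclease gene Fen1 was at 0.44 (95% interval -0.22 to 1.11), the clamp loader gene Rfc4 at 0.30 (-0.58 to 1.18), and the polymerase genes Pole and Pola1 at 0.21 each (-1.27 to 1.68 and -0.66 to 1.07). The nucleotide supply genes went both ways: the ribonucleotide reductase subunits Rrm1 and Rrm2 were at 0.08 (-0.45 to 0.62) and -0.25 (-0.87 to 0.37), and thymidylate synthase (Tyms) was at -0.17 (-1.23 to 0.89).

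Uhrf1, which brings DNA methyltransferase 1 to newly copied DNA, had log2 intensities of 11.12, 11.58, 11.32, 10.70 and 11.37 in control and 11.26, 11.36, 11.40, 11.36 and 11.25 in LysM-KI mice. The LysM-KI values lay close together inside the control range, and all were above the control mean, with control replicate 4 the lowest of the 10. Its log2 fold change was 0.11 (SE 0.22, limma adjusted p = 0.978). Ung, which removes uracil from DNA, was the steadiest member, with an SD within groups of 0.14 and a log2 fold change of 0.10 (95% interval -0.33 to 0.54). Slbp, which binds the stem-loop of histone mRNAs, was at 0.39 (-0.40 to 1.18), and Chaf1b, a subunit of the histone chaperone CAF-1, at -0.21 (-1.62 to 1.19).

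E2f1, the activator of many S phase genes, had log2 intensities of 8.75, 9.89, 9.68, 9.30 and 8.84 in control and 9.71, 9.34, 9.59, 9.54 and 8.70 in LysM-KI mice. The ranges nearly coincided, and the log2 fold change was 0.09 (SE 0.30, limma adjusted p = 0.984). Ccne2 was at -0.59 (95% interval -2.05 to 0.86), with control replicate 4 and LysM-KI replicate 5 not told apart from background.

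Over the replication genes, 18 of 24 were above 0 and the median log2 fold change was 0.10, beside 0.05 over all genes tested, 55.5% of which were above 0. The median kept its sign under every alternative that was run, from 0.04 without control replicate 5 to 0.20 with the mean of all probes of a gene. The alternative with the replicate number as a block could not change it. Of the mitosis genes, 13 of 21 were above 0, and their median of 0.04 turned to -0.05 with cyclic loess normalization and was 0.00 without control replicate 4 and 0.15 without LysM-KI replicate 2. Cyclic loess moved the median of all probes from 0.03 to -0.03, and the -0.05 of the mitosis genes is to be read against that shift. Median scaling moved the median of all probes to 0.13. The medians of 0.16 and 0.09 that it gave for the replication and mitosis genes are to be read against that shift.

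**Figure D4:**
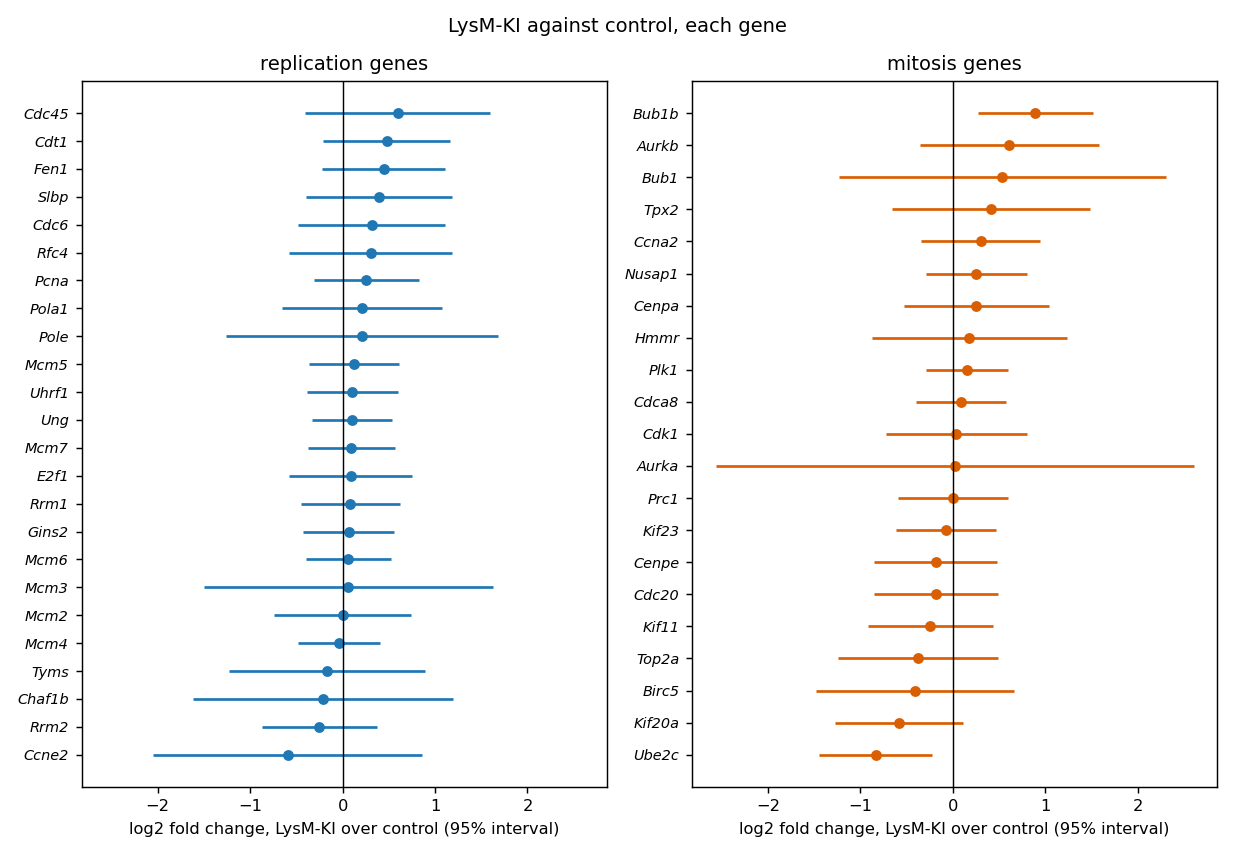
Log2 fold change of LysM-KI over control (horizontal axis) with its 95% interval from limma for the 24 replication genes (left) and 21 mitosis genes (right), ordered by size. All replication intervals cross 0, and of the mitosis genes Bub1b (0.27 to 1.51) and Ube2c (-1.44 to -0.23) lie to either side of it.

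Bub1b encodes BubR1, which holds back the anaphase-promoting complex until the chromosomes are attached to the spindle. Its log2 intensities were 6.66, 7.04, 8.01, 6.99 and 7.05 in control mice 1 to 5 and 7.95, 8.02, 8.14, 7.71 and 8.39 in LysM-KI mice 1 to 5. Control replicate 3 alone lay among the LysM-KI mice, and the other controls were below all of them. The log2 fold change was 0.89, a 1.86-fold difference (SE 0.28, 95% interval 0.27 to 1.51, limma unadjusted p = 0.00877 and adjusted p = 0.792). Its second tested probe gave 0.47, and without background correction the value was 0.57.

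Ube2c encodes the ubiquitin-conjugating enzyme that works with the anaphase-promoting complex. Its log2 intensities were 6.71, 6.20, 7.29, 7.03 and 6.81 in control and 5.88, 5.76, 5.59, 6.09 and 6.54 in LysM-KI mice. All 5 LysM-KI mice lay below the control mean, and the groups overlapped through control replicate 2 and LysM-KI replicate 5. The log2 fold change was -0.84, a ratio of 0.560 (SE 0.28, 95% interval -1.44 to -0.23, limma unadjusted p = 0.0114 and adjusted p = 0.819). With no background correction it was -0.39, with the values the authors had normalized -0.38, and it was -0.59 with an offset of 50, and with median scaling, at -0.67, its unadjusted p was no longer under 0.05. Of the other members that act at this step, Cdc20, the activator of the anaphase-promoting complex, was at -0.18 (95% interval -0.86 to 0.49) and below 0 on all 4 of its tested probes (-0.88 to -0.18), and the checkpoint kinase gene Bub1 was at 0.53 (-1.24 to 2.30).

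Cdk1, the kinase that drives entry into mitosis, had log2 intensities of 8.83, 9.08, 8.18, 8.38 and 9.72 in control and 8.81, 8.44, 8.42, 9.54 and 9.16 in LysM-KI mice. The LysM-KI values lay inside the control range, and the log2 fold change was 0.04 (SE 0.35, limma adjusted p = 0.994). Its partner cyclin A2 (Ccna2) was at 0.30 (95% interval -0.34 to 0.94). The mitotic kinase genes Plk1 and Aurka were at 0.15 (-0.30 to 0.60) and 0.02 (-2.56 to 2.60). In the chromosomal passenger complex, which corrects attachment and guides cytokinesis, the kinase gene Aurkb was at 0.61 (-0.36 to 1.58), Cdca8 (borealin) at 0.09 (-0.40 to 0.58) and Birc5 (survivin) at -0.41 (-1.48 to 0.66). A second tested probe of Cdca8 gave -0.75, and the other tested probes of Birc5 gave -0.21 and 0.15.

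Top2a, the topoisomerase that untangles sister chromatids, had log2 intensities of 9.03, 9.26, 7.96, 8.91 and 9.53 in control and 8.63, 9.19, 9.15, 8.38 and 7.47 in LysM-KI mice. The groups overlapped over most of their range. The log2 fold change was -0.38 (SE 0.39, limma adjusted p = 0.952), and a second probe, detected on 8 arrays, gave 0.65. The kinetochore genes Cenpa, the centromeric histone H3 variant, and Cenpe, a kinesin, were at 0.25 (95% interval -0.53 to 1.04) and -0.18 (-0.85 to 0.48). A second tested probe of Cenpa gave -0.35.

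Of the spindle genes, the motor gene Kif11 was at -0.25 (95% interval -0.92 to 0.43), with 8.83 on LysM-KI replicate 2 and 10.02 to 10.36 on the other 9 arrays. The microtubule proteins Tpx2, Nusap1 and Hmmr were at 0.41 (-0.66 to 1.48), 0.25 (-0.29 to 0.80) and 0.17 (-0.88 to 1.23). Kif20a, a kinesin of the central spindle, had log2 intensities of 7.78, 7.75, 7.16, 8.58 and 7.47 in control and 7.08, 7.29, 7.71, 6.56 and 7.18 in LysM-KI mice. It is given in full because, with Ube2c, all 5 of its LysM-KI values lay under the mean of the controls, which was seen after its values were known. In all, 6 of the 45 members had every LysM-KI value on 1 side of the control mean, against 20.5% of all probes, namely Cdt1, Uhrf1, Bub1b and Cenpa above it and Kif20a and Ube2c below it. Its log2 fold change was -0.58 (SE 0.31, limma adjusted p = 0.938). The central spindle genes Prc1 and Kif23 were at 0.00 (-0.59 to 0.59) and -0.07 (-0.61 to 0.46).

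**Figure D5:**
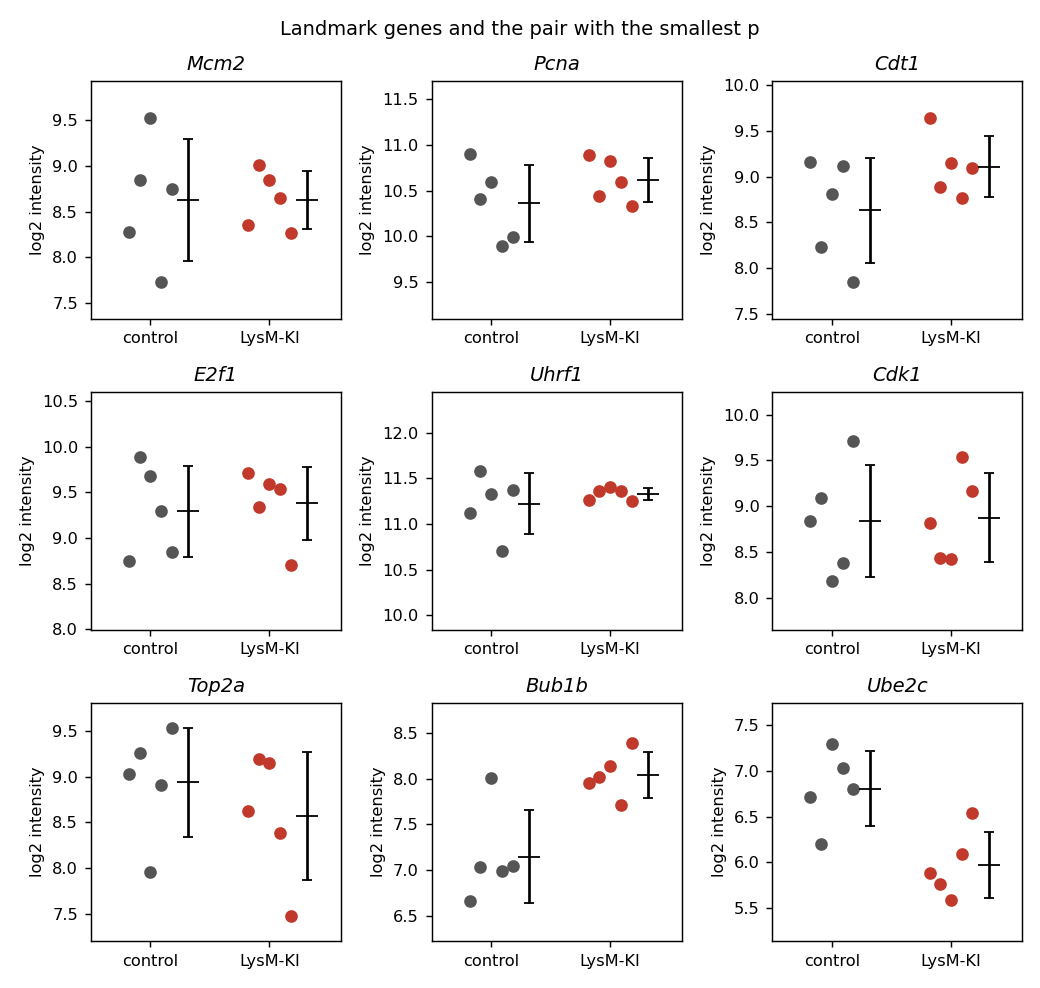
Log2 intensity (vertical axis, the same span in each panel) of 9 genes on the 5 control and 5 LysM-KI arrays, 1 point per mouse, with the group mean and SD as a bar beside the points. Bub1b is higher and Ube2c lower in most LysM-KI mice with 1 or more arrays overlapping, and the other 7 genes overlap broadly.

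Other genes of the same processes also gave few differences. Of 45 other replication genes 43 were tested, with a median log2 fold change of 0.19 and 28 above 0, and at an unadjusted p under 0.05 limma gave 2 higher and 1 lower. Rpa1, the large subunit of the protein that coats single-stranded DNA, was at 0.67 (SE 0.26), and Cdc7, the kinase that fires origins with Dbf4, was at 0.63 (SE 0.25), while the origin recognition subunit gene Orc5 was at -1.04 (SE 0.38). Of 54 other mitosis genes 47 were tested, with a median of 0.17 and 30 above 0, and 2 were higher and 0 lower at that threshold. These were the spindle kinesin gene Kif15 at 0.95 (SE 0.33) and the condensin subunit gene Smc2 at 1.15 (SE 0.38), the latter detected on 2 of 5 control arrays. None passed adjustment (lowest limma adjusted p = 0.824). Over all 8841 genes tested the median was 0.05, and 287 were higher and 160 lower at an unadjusted p under 0.05. Above 0 were 55.5% of all genes tested, against 65.1% of the other replication and 63.8% of the other mitosis genes.

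The members varied less between mice of a group than most genes. The median SD within groups was 0.46 on the log2 scale for both the replication and the mitosis genes, against 0.64 for all genes tested, and 16 of 24 and 14 of 21 were below that median. Their probes were also brighter, with a median log2 intensity of 8.75 in both sets against 7.38, and the part of brightness in the smaller spread was not tested. Ung (0.14), Mcm4 (0.16), Plk1 (0.17), Mcm6 (0.19) and Mcm7 (0.21) were the steadiest, and Aurka (2.16), Bub1 (1.46), Mcm3 (1.28), Pole (1.20) and Ccne2 (1.18) the least steady. The SD was smaller in LysM-KI than in control mice for 33 of 45 members, close to the share of 70.4% over all genes tested.

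Correlations between members across mice were weak. Over the deviations from the group means on the 10 arrays, the median correlation between 2 genes was 0.12 among 276 pairs of replication genes, 0.04 among 210 pairs of mitosis genes and 0.04 between the sets, beside 0.00 over all genes tested. All pairs share the same 10 arrays, and these values are descriptions. Against the mean of the other replication genes, Rrm1 and Fen1 had a correlation of 0.79 each, Ung one of 0.66 and Mcm7 one of 0.62, while Chaf1b was at -0.39. Rrm1, Fen1, Ung and Mcm7 each had their lowest value of the 10 arrays on control replicate 5, where the replication level was also lowest. The part of that array in these correlations was not tested. Among the mitosis genes Kif11 was at 0.79, with the low LysM-KI replicate 2 among its values, and Bub1 at -0.61.

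Of the members with E2F letters in the promoter window, 13 of 15 were above 0 with a median log2 fold change of 0.11, beside 13 of 22 members without them and a median of 0.05. Over all genes tested, 58.7% of the 1464 with these letters were above 0 (median 0.07), beside 54.7% of those without (median 0.04). Of the members with CHR letters, 10 of 16 were above 0 with a median of 0.03, beside 16 of 21 members without them and a median of 0.10. Over all genes tested the medians were 0.04 with and 0.05 without the CHR letters.

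Several members were measured by more than 1 probe, and these did not always share a direction. Of 23 members with at least 2 tested probes, 11 had all probes on the same side of 0 (47.8%), as had 1713 of 3429 genes over the whole array. Mcm6, Tyms and Cdc20 had all 4 tested probes on one side and Nusap1 all 3. Cdc6 was at 0.31 on its brightest probe, and its other tested probes gave -2.07 (SE 0.61, limma adjusted p = 0.721) and 0.68. For Mcm7 a dimmer probe, detected on 9 arrays, gave 1.85 (SE 0.54, limma adjusted p = 0.721) beside 0.09 on the brightest. These probes were named after their values were seen.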

How the data were processed

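Linear intensities, deposited by the authors without normalization or background correction, stand beside a fraction between 0 and 1 that rises with intensity (lowest rank correlation 0.990), and 1 minus this deposited fraction served as the detection p. Deposited log2 values, centred on each probe's median, came within 0.0131 of the log2 quantile-normalized intensities without background correction. Per the labels' protocols, RNA was amplified with the WT-Ovation Pico system. Scanner software is not given in the sources used here. No column belonged to another sample (0 columns).

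With limma 3.58.1 in R 4.3.3, intensities were corrected by normexp on the detection p (offset 16), quantile-normalized and logged, and probes detected (p under 0.05) on at least 5 of 10 arrays were kept. The offset pulls fold changes of dim probes toward 0. Of 45281 probes, 34885 had 1 symbol, 18 several and 10378 none. A linear model with moderated errors (11.1 degrees of freedom) compared the groups without pairing, two-sided, with Benjamini-Hochberg adjustment over all kept probes. P-values measure the spread between mice, and 5 arrays a group limit the precision. The fit was tested on simulated data. Left-out arrays were dropped after normalization. Alternatives were other backgrounds, scalings, filters, array weights, the authors' values and left-out arrays. Any member may be named, with values in every array for those at an unadjusted p under 0.05, those whose groups do not overlap and 10 landmarks, of which Ccne1, Mki67 and Ccnb1 could not be tested. Of other lists, genes at an unadjusted p under 0.05 are named. Members, lists and motifs were chosen with earlier results of these data known. Protein motifs that had been planned were not analysed here.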

Additional observations from a re-analysis of the deposited data

Results flagged for a closer look

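Within each group of 5 mice, the gap of the highest or lowest array to its neighbour was set against the range of the group, for the 45 genes and 3 averages. Of 96 groups 10 exceeded Dixon's critical value of 0.71, where chance gives about 1 in 20. The low replication level of control replicate 5 (8.92, its nearest control at 9.29) was one, and its mitosis minus replication value of -0.32 (nearest -0.76) another. Aurka was low on control replicate 4 (4.57, nearest 8.89) and on LysM-KI replicate 2 (4.67, nearest 9.14). On LysM-KI replicate 2 Mcm6 was high at 13.03 and Kif11 low at 8.83, and on control replicate 4 Ccne2 was low at 5.01. Cenpe was high on control replicate 5 at 7.97, Cenpa high on control replicate 2 at 11.59, and Ccna2 low on control replicate 3 at 7.26. Of the 8 single-gene values, 5 lay on control replicate 4 or LysM-KI replicate 2. Over all probes these arrays most often held the highest or lowest value, LysM-KI replicate 2 only narrowly more often than control replicate 5. Without control replicate 4 and LysM-KI replicate 2, 2 members were higher (Aurkb and Bub1b) and 2 lower (Ccne2 and Ube2c) at an unadjusted p under 0.05. Beside them stood 621 higher and 358 lower of all 17245 probes tested. Of the members, 0 passed adjustment (lowest limma adjusted p of a member 0.783).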

How the results depend on the processing

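Under all 21 alternatives to the fit over all probes, limma called 0 probes, with a lowest adjusted p of 0.154 to 0.800. At an unadjusted p under 0.05 the 587 higher and 335 lower probes became 984 and 864 with no filter, 320 and 211 with probes detected on all 10 arrays, 783 and 180 with median scaling and 430 and 450 with cyclic loess. Bub1b was between 0.57 and 1.11 and Ube2c between -0.99 and -0.38 under 22 alternatives each, with none past adjustment. The replication genes differed in mean level by 0.03 to 0.18 and the mitosis genes by -0.04 to 0.11, the highest of both with median scaling, which also raised the median of all probes to 0.13. Mice with equal replicate numbers in both groups had deviations that were hardly correlated (-0.03 to 0.06). Mice with unequal numbers were not set beside them, and the labels state no pairing. With the replicate number as a block, limma called 0 probes (lowest adjusted p 0.800). The block could not move the fold changes, since each number held 1 array of each group. Nor could the other probe filters move the fold change of a single probe, since the normalized values were the same. Leaving out 1 mouse at a time gave 0 calls each time. Values near background limit Ccne1, Ccnb2, Pole, Ccne2, Aurka and Bub1. Ube2c was detected on all 10 arrays, but its probe had the lowest mean raw intensity of the members tested (191.65).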
